A study of Bos taurus with 18 samples.

Results

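The 2 mature arms of miR-126 (bta-miR-126-5p and bta-miR-126-3p) and miR-218 (bta-miR-218) were followed in small RNA libraries of rumen papillae. They were taken by name from 824 miRNAs read in the libraries, and all 3 were among the 468 miRNAs with enough reads for testing. The papillae are leaf-like projections of the wall of the rumen, the fermenting forestomach, and consist of a stratified epithelium over a core of connective tissue and vessels.

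The libraries came from 9 Holstein cows that were not in milk and carried ruminal cannulas. The groups were HG_PHY, 4 libraries from cows on high grain (65% concentrate) with the supplement labelled PHY, and HG_CON, 5 libraries from control cows on high grain. On forage alone the groups were FD_PHY, 4 libraries from the cows allotted to PHY, and FD_CON, 5 libraries from the control cows. The labels do not spell out PHY or say whether it was already fed during the forage period. Every cow ate forage first and grain later, so diet and time cannot be told apart.

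The hairpin of miR-126 is a classic endothelial transcript. It is encoded within EGFL7, a gene of endothelial cells, and in the RefSeq table of cattle genes MIR126 on chromosome 11 lies inside EGFL7. In mouse and zebrafish, miR-126-3p sustains signalling by vascular endothelial growth factor through repression of SPRED1 and PIK3R2, and miR-126-5p acts on the Notch inhibitor DLK1 in mouse endothelium. miR-218 is known from the SLIT and ROBO guidance pathway: its hairpins sit in the SLIT genes and it represses ROBO receptors, in vessels as well as in neurons. The same table places MIR218-1 (chromosome 6) inside SLIT2 and MIR218-2 (chromosome 20) inside SLIT3. None of the 3 miRNAs is proof of an endothelial source in a tissue of mixed cells, and in such samples fewer cells of a type and less RNA per cell cannot be told apart.

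Both miR-126 arms were listed at the hairpin on chromosome 11, each 21 nt long with 17 nt between them, and in 18 of 18 libraries every read of either arm was assigned to that arm alone. miR-218 differed in this respect. It was listed at the chromosome 6 hairpin in 17 libraries and at the chromosome 20 hairpin in 1, and the authors' adjusted count was 0.333 to 0.342 of the raw count. The same reads were counted again under the human entry hsa-miR-218-5p, so miR-218 levels stand for both hairpins together. No opposite arm of either miR-218 hairpin was listed.

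Libraries held 5.74 to 15.2 M reads counted once per miRNA, out of 19.5 to 42.7 M reads in all. miR-126-3p had 68916 to 154886 raw reads per library, miR-126-5p 13286 to 45428 and miR-218 1162 to 4863, so counting error was small beside the differences between cows. The miRNAs of epithelium were abundant, with miR-205 at a mean of 28643 CPM, while miR-203 of the same list had no entry in the files used here. Levels are CPM, counts relative to library size, after TMM scaling, which sets the libraries to a common scale by the bulk of the miRNAs. The library FD_CON_2 stood apart: its miRNAs of smooth and striated muscle (miR-143, miR-145, miR-1 and miR-133a) summed to 297899 CPM. The other 17 libraries lay between 102603 and 166117 CPM. This sum mostly reflects miR-143, with a mean of 133130 CPM over all libraries. The mean was 4504 CPM for miR-145, and miR-1 and miR-133a were lower still.

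miR-126-3p was the most abundant of the 3, with 11259 ± 1243 CPM over all libraries (SD, n = 18), or 1.13% of the miRNA reads, and was 18th in order of mean level among the 468 miRNAs. miR-126-5p averaged 2176 ± 457 CPM (SD, n = 18) and was 50th, and miR-218 averaged 253 ± 52.3 CPM (SD, n = 18) and was 125th. As mature miRNAs of 21 or 22 nt are each read whole, no length correction applies, although ligation of adapters favours some ends over others. Between libraries of a group, miR-126-3p was the steadiest, with a within-group SD of 0.13 on the log2 scale, against 0.23 for miR-126-5p and 0.27 for miR-218. The median SD was 0.24 over the 157 miRNAs with a mean of at least 100 CPM, and 16 of these had a smaller SD than miR-126-3p.

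**Figure D1:**
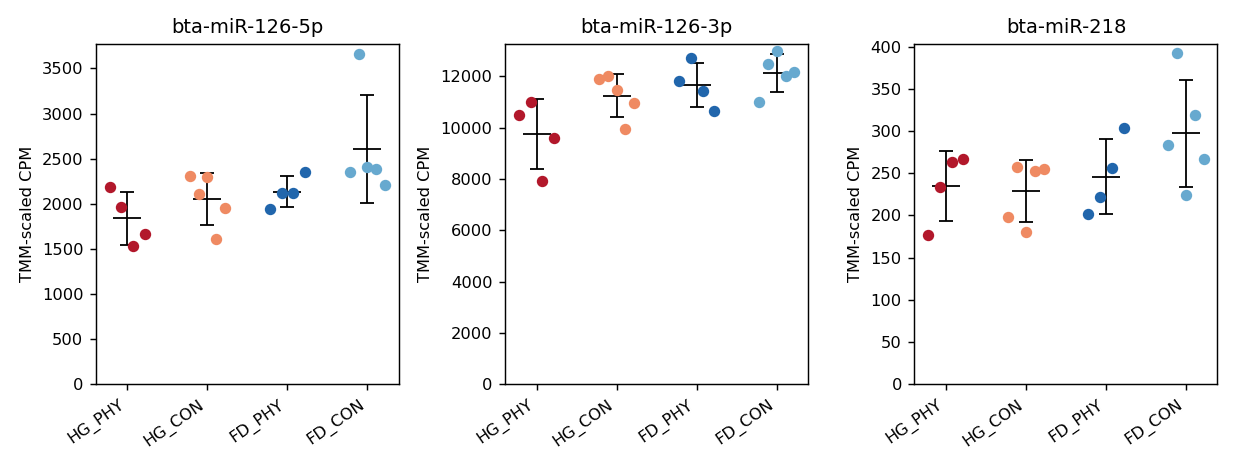
Levels of the 3 miRNAs in TMM-scaled CPM (y axis, from 0) in each library, by group. Points are libraries and bars give the mean ± SD of 4 or 5 libraries. FD_CON_2 is the single high point of miR-126-5p (3664 CPM), and the groups overlap in all 3 panels.

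Grain was first set against forage over CON and PHY cows together. miR-126-5p had 2181, 1965, 1536 and 1669 CPM in HG_PHY and 2306, 2107, 2295, 1606 and 1955 CPM in HG_CON. On forage it had 1944, 2120, 2116 and 2354 CPM in FD_PHY and 2352, 3664, 2403, 2390 and 2203 CPM in FD_CON. All 9 grain libraries lay below the forage mean and 3 of them below every forage library, but the ranges overlapped and the forage mean was raised by FD_CON_2. Of the 468 miRNAs, 17 (3.63%) had all 9 grain libraries below the forage mean. The share of miRNAs with 3 grain libraries below every forage library was not worked out. The mean was 1958 ± 294 CPM on grain and 2394 ± 501 CPM on forage (SD, n = 9 each).

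For miR-126-3p the values were 10514, 11020, 7915 and 9597 CPM in HG_PHY and 11882, 12017, 11464, 9962 and 10956 CPM in HG_CON. The forage values were 11812, 12737, 11426 and 10659 CPM in FD_PHY and 11014, 12494, 13013, 12020 and 12170 CPM in FD_CON. Of the 9 grain libraries, 8 lay below the forage mean and 4 below every forage library, with HG_PHY_3 the lowest of all 18 libraries. Across the 468 miRNAs, 12.6% had at least 8 grain libraries below the forage mean. The share with 4 below every forage library was not worked out. The mean was 10592 ± 1291 CPM on grain and 11927 ± 785 CPM on forage (SD, n = 9 each).

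miR-218 stood at 177, 233, 263 and 267 CPM in HG_PHY and at 198, 257, 181, 252 and 255 CPM in HG_CON. On forage it stood at 202, 222, 257 and 303 CPM in FD_PHY and at 283, 392, 224, 318 and 267 CPM in FD_CON. Again all 9 grain libraries were below the forage mean and 3 of them below every forage library, but the ranges overlapped. FD_CON_2 was the highest library and raised the forage mean. Of the 468 miRNAs, 17 (3.63%) had all 9 grain libraries below the forage mean. The share with 3 grain libraries below every forage library was not worked out. The mean was 231 ± 36.3 CPM on grain and 274 ± 58.8 CPM on forage (SD, n = 9 each).

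In this comparison 0 of the 3 miRNAs passed edgeR's quasi-likelihood test at an adjusted p under 0.05, while 1 of all 468 miRNAs (0.214%) did. The log2 change, grain minus forage, was -0.28 ± 0.11 (SE) for miR-126-5p, with a 95% interval of -0.50 to -0.05, an unadjusted p of 0.0171 and an adjusted p of 0.317. It was -0.18 ± 0.08 for miR-126-3p, with an interval of -0.34 to -0.03, an unadjusted p of 0.0250 and an adjusted p of 0.330. For miR-218 it was -0.22 ± 0.12, with an interval of -0.48 to 0.04, an unadjusted p of 0.0919 and an adjusted p of 0.528. The unadjusted p was under 0.05 for 2 of the 3 miRNAs, both lower on grain, and for 10.7% of the 468, with 6.41% lower and 4.27% higher. DESeq2 and limma-voom also called 0 of the 3. Without FD_CON_2 the change of miR-126-5p was -0.22, and without HG_PHY_3 that of miR-126-3p was -0.12.

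The scaling of the libraries affected these values. With library sizes alone and no TMM factor, a setting added after the data were seen, the median change of all 468 miRNAs was 0.09, a shift of 0.10, and the changes were -0.16 for miR-126-5p, -0.08 for miR-126-3p and -0.12 for miR-218. FD_CON_2 shows the effect: its miR-126-3p was 12494 CPM with TMM, within the upper part of the forage libraries, but 10216 RPM, the authors' scaling by the reads assigned to miRNAs, and there the lowest of the 9 forage libraries. Its miR-126-5p was the highest of all 18 libraries by either scaling, with 2996 RPM.

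**Figure D2:**
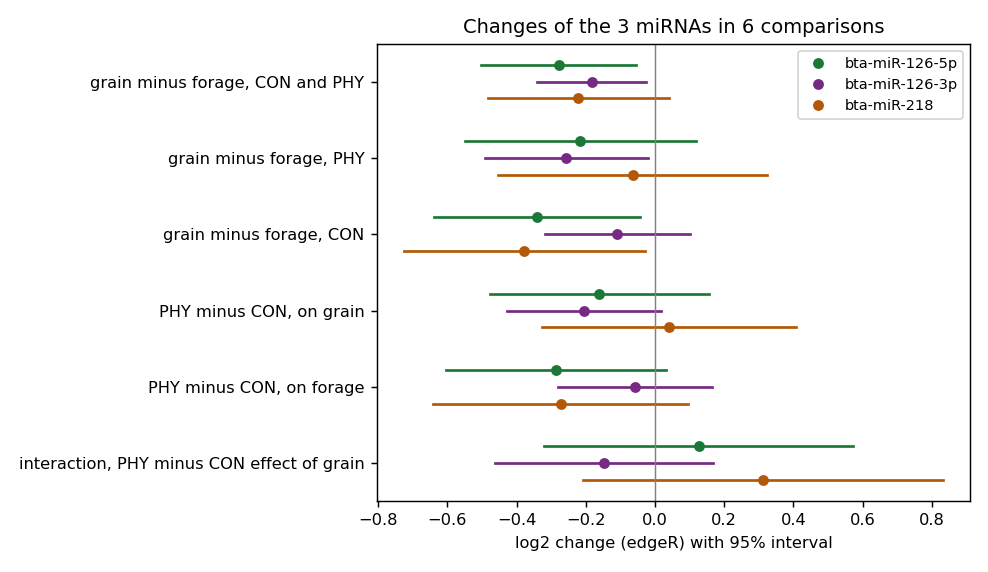
Log2 changes (x axis) of the 3 miRNAs in the 6 comparisons, with 95% intervals from the edgeR fit over 468 miRNAs. The intervals that exclude 0 belong to miR-126-5p and miR-126-3p over both treatments, to miR-126-5p and miR-218 in CON cows and to miR-126-3p in PHY cows, and 0 of the 18 changes passed after adjustment.

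In PHY cows taken alone, miR-126-3p averaged 9762 ± 1364 CPM on grain and 11658 ± 864 CPM on forage (SD, n = 4 each), and miR-126-5p 1838 ± 291 and 2133 ± 169 CPM. miR-218 averaged 235 ± 41.3 CPM on grain and 246 ± 44.5 CPM on forage. The log2 changes were -0.26 ± 0.11 (SE) for miR-126-3p, -0.22 ± 0.16 for miR-126-5p and -0.06 ± 0.19 for miR-218. All 4 grain libraries were below the forage mean for miR-126-3p, 3 of 4 for miR-126-5p and 2 of 4 for miR-218. How many of all miRNAs had such counts was not worked out. Without HG_PHY_3 the change was -0.14 for miR-126-3p and -0.11 for miR-126-5p. That of miR-218 was 0.045 without FD_PHY_4 and -0.15 without FD_PHY_1.

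In CON cows, miR-126-5p averaged 2054 ± 289 CPM on grain and 2602 ± 599 CPM on forage (SD, n = 5 each), miR-126-3p 11256 ± 833 and 12142 ± 737 CPM, and miR-218 229 ± 36.5 and 297 ± 63.1 CPM. All 5 HG_CON libraries lay below the FD_CON mean for each of the 3, where FD_CON_2 raised the mean of miR-126-5p and miR-218. The share of all miRNAs with such a count was not worked out. The log2 changes were -0.34 ± 0.14 (SE) for miR-126-5p, -0.11 ± 0.10 for miR-126-3p and -0.38 ± 0.17 for miR-218. Without FD_CON_2 the change of miR-126-5p was -0.23 and that of miR-218 -0.30, and without HG_CON_4 that of miR-126-3p was -0.065. With no scaling factor the change of miR-126-3p turned to 0.083, where the median of all miRNAs stood at 0.17.

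edgeR called 0 of 468 miRNAs (0%) in PHY cows and 0 (0%) in CON cows, the 3 miRNAs included. In PHY cows the unadjusted p was under 0.05 for miR-126-3p alone of the 3 (unadjusted p = 0.0339, adjusted p = 0.647) and for 7.05% of the 468 (3.42% lower). In CON cows it was under 0.05 for miR-126-5p (0.0267, adjusted p = 0.397) and miR-218 (0.0346, adjusted p = 0.405) and for 10.7% of the 468 (6.84% lower). DESeq2 called 0 miRNAs in PHY cows and 0 in CON cows, and limma-voom called 1 in PHY cows, none of the 3, and 0 in CON cows.

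The test of whether grain acted differently with PHY called 0 of 468 miRNAs (0%) by edgeR, DESeq2 or limma-voom, and 2.14% had an unadjusted p under 0.05 in edgeR. The interaction, the effect of grain in PHY cows minus that in CON cows, was 0.31 ± 0.25 (SE) for miR-218, with a 95% interval of -0.21 to 0.83. It was 0.13 ± 0.21 for miR-126-5p (interval -0.32 to 0.57; -0.064 with no scaling factor) and -0.15 ± 0.15 for miR-126-3p (interval -0.46 to 0.17). With 1 library left out, the interaction ran from 0.21 (without FD_PHY_1) to 0.42 (without FD_PHY_4) for miR-218, from 0.018 (without HG_PHY_1) to 0.22 (without HG_PHY_3) for miR-126-5p and from -0.24 (without HG_PHY_2) to -0.040 (without HG_PHY_3) for miR-126-3p. With all libraries the adjusted p was 0.997 for all 3, and the smallest unadjusted p was 0.225.

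PHY and CON cows were then compared within each diet, a comparison between different animals. On grain, the log2 difference, PHY minus CON, was -0.21 ± 0.11 (SE) for miR-126-3p, -0.16 ± 0.15 for miR-126-5p and 0.04 ± 0.18 for miR-218. All 4 HG_PHY libraries lay below the HG_CON mean for miR-126-3p, and the share of all miRNAs with this count was not worked out. Without HG_PHY_3 the difference was -0.088 for miR-126-3p and -0.054 for miR-126-5p, and that of miR-218 ran from -0.011 without HG_CON_3 to 0.15 without HG_PHY_1. On forage, the difference was -0.29 ± 0.15 for miR-126-5p, -0.27 ± 0.18 for miR-218 and -0.06 ± 0.11 for miR-126-3p, the last at 0.089 with no scaling factor. Without FD_CON_2 the forage difference was -0.14 for miR-126-5p and -0.16 for miR-218, and without FD_PHY_4 it was -0.0054 for miR-126-3p.

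The smallest adjusted p of the 3 miRNAs was 0.677 on grain and 0.929 on forage. edgeR called 0 of 468 miRNAs (0%) on grain, with 6.84% at an unadjusted p under 0.05, and 0 (0%) on forage, with 4.7%. DESeq2 called 2 miRNAs on grain and 1 on forage, and limma-voom called 0 on each diet; none of those called was among the 3.

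In order of mean level, all 3 miRNAs were highest in FD_CON, followed by FD_PHY. For both miR-126 arms HG_CON came next and HG_PHY last, and for miR-218 HG_PHY came before HG_CON. Among the 9 pairs of neighbours in these orders, 1 differed by more than the larger SD of the pair: miR-126-3p in HG_PHY and HG_CON, 1495 CPM apart where the larger SD was 1364 CPM. The ranges of the 3 miRNAs overlapped in every pair of groups compared. Of all 468 miRNAs, 5.77% did not overlap between HG_PHY and FD_PHY, 1.07% between HG_CON and FD_CON, 2.56% between HG_PHY and HG_CON and 1.28% between FD_PHY and FD_CON, and 0% between the 9 grain and the 9 forage libraries.

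Because the miR-126 arms come from the same hairpin, their ratio in a library needs no scaling between libraries. miR-126-3p was the more abundant arm throughout, with 3.41 to 6.20 reads per read of miR-126-5p and a median of 5.41. Put as the share of miR-126 reads that came from the 5p arm, this is 13.9% to 22.7%. The 95% Wilson interval of the share was at most 0.256 percentage points to either side, so the libraries differed by far more than counting error. Intervals cover counting error only, as the reads are not shown to be independent molecules.

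The ratio of 3p to 5p reads was 4.82, 5.61, 5.15 and 5.75 in HG_PHY and 5.15, 5.70, 4.99, 6.20 and 5.60 in HG_CON. It was 6.08, 6.01, 5.40 and 4.53 in FD_PHY and 4.68, 3.41, 5.42, 5.03 and 5.52 in FD_CON. FD_CON_2 had the lowest ratio of all libraries, FD_PHY_4 the next lowest, and the groups overlapped.

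**Figure D3:**
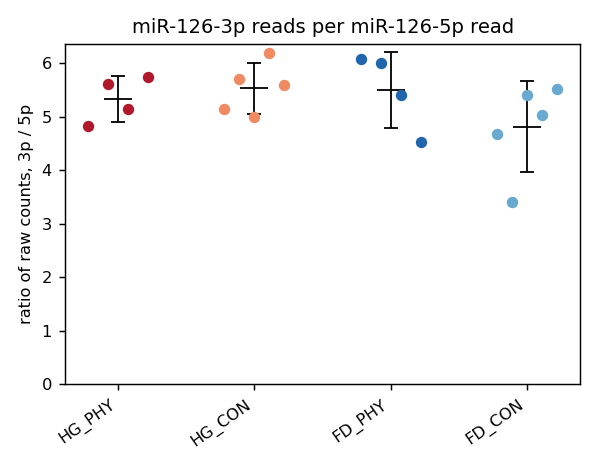
Raw miR-126-3p reads per raw miR-126-5p read (y axis, from 0) in each library, by group, with the mean ± SD of 4 or 5 libraries. FD_CON_2 is lowest at 3.41 and HG_CON_4 highest at 6.20, and the 9 grain libraries spread less than the 9 forage libraries.

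On the log2 scale, the ratio of 5p to 3p averaged -2.44 ± 0.12 on grain and -2.34 ± 0.26 on forage (SD, n = 9 each). The difference, grain minus forage averaged over CON and PHY cows, was -0.09 ± 0.09 (SE; two-sided exact permutation p = 0.366, and 0.548 adjusted over the 6 comparisons), and -0.030 without FD_CON_2. It was 0.04 ± 0.11 in PHY cows (exact permutation p = 0.743; adjusted 0.743; -0.012 without FD_PHY_1 and 0.13 without FD_PHY_4) and -0.22 ± 0.14 in CON cows (exact permutation p = 0.127; adjusted 0.548); without FD_CON_2 it was -0.10. PHY minus CON was 0.05 ± 0.08 on grain (exact permutation p = 0.540; adjusted 0.648; 0.0044 without HG_PHY_1 and 0.089 without HG_PHY_4) and -0.20 ± 0.16 on forage (exact permutation p = 0.294; adjusted 0.548; -0.09 without FD_CON_2). The interaction was 0.26 ± 0.18 (exact permutation p = 0.186; adjusted 0.548; 0.14 without FD_CON_2). The smallest p that the arrangements allowed was 0.0286 in PHY cows and 0.00794 in CON cows. None of the 6 differences passed the test. The permutations for grain against forage and for the interaction treated forage and grain libraries as independent, although the same cows gave both.

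How the 3 miRNAs varied together from cow to cow was examined within each diet, where the 9 libraries are 9 animals, as 6 correlations of log2 CPM. The 9 are PHY and CON cows together, so the correlations include any difference between the treatments. On grain, the miR-126 arms moved together, with a Pearson r of 0.85 (exact permutation p = 0.00111, adjusted 0.00668) and a Spearman rho of 0.80 (exact permutation p = 0.0138, adjusted 0.0737). Without the 2 libraries farthest from the median of miR-126-5p, r was 0.78. On forage, r was 0.22 (exact permutation p = 0.599, adjusted 0.599), rho was 0.32 (exact permutation p = 0.410, adjusted 0.492) and r without the 2 farthest libraries was -0.14. Scaled by assigned reads, r was 0.91 on grain and -0.41 on forage. The arms therefore tracked each other among the grain libraries and showed no steady relation among the forage libraries; whether the diets differ in this was not tested.

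miR-218 did not follow miR-126 in this way. On grain, libraries with more miR-126-5p had less miR-218, with r = -0.77 (exact permutation p = 0.0180, adjusted 0.0361), rho = -0.73 (exact permutation p = 0.0311, adjusted 0.0737) and r = -0.78 without the 2 farthest libraries. On forage, the sign was the opposite, with r = 0.83 (exact permutation p = 0.00359, adjusted 0.0108) and rho = 0.72 (exact permutation p = 0.0369, adjusted 0.0737). The forage r came down to 0.45 without the 2 farthest libraries, so its size depends in part on those. When scaled by assigned reads, it came down to 0.61 (exact permutation p = 0.0613, adjusted 0.0920).

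Against miR-126-3p, miR-218 had r = -0.44 on grain (exact permutation p = 0.240, adjusted 0.360; rho = -0.42, p = 0.270, adjusted 0.404; -0.10 without the 2 farthest libraries). On forage r was -0.21 (exact permutation p = 0.595, adjusted 0.599; rho = -0.23, p = 0.552, adjusted 0.552; -0.01 without the 2 farthest libraries). Scaled by assigned reads, the forage value was -0.87 (exact permutation p = 0.00480, adjusted 0.0144), so this relation depends on the scaling.

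**Figure D4:**
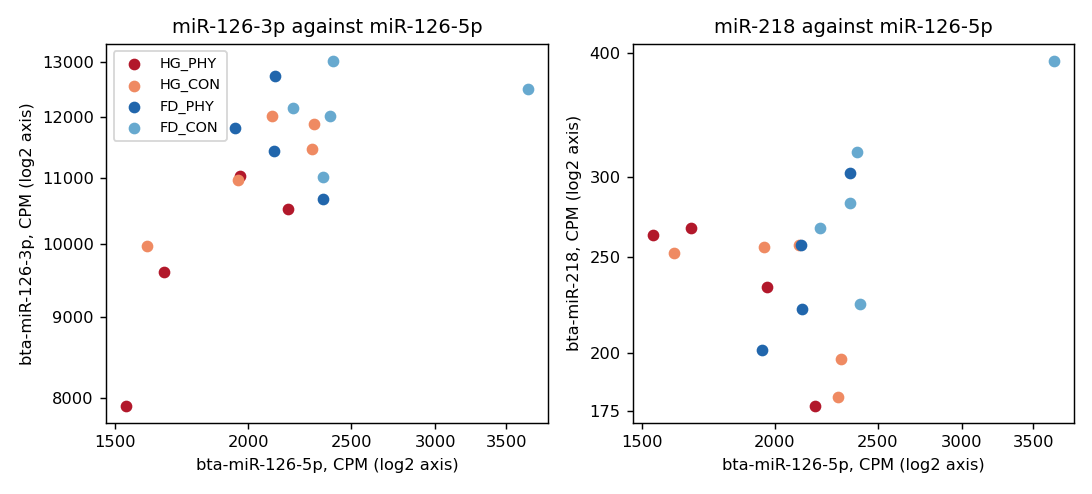
miR-126-3p (left) and miR-218 (right) against miR-126-5p in each of the 18 libraries, in TMM-scaled CPM on log2 axes, coloured by group. On the left the grain libraries form a rising band from 1536 to 2306 CPM of miR-126-5p; on the right they form a falling one, and FD_CON_2 lies far to the right at 3664 CPM.

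The miRNAs whose levels were most like each of the 3 over the 18 libraries were sought among the 157 miRNAs with a mean of at least 100 CPM. These correlations are given as descriptions, and all share the libraries and their scaling. miR-126-5p was closest to miR-145 (r = 0.85), miR-1 (0.85) and miR-143 (0.82), miRNAs of smooth and striated muscle, and its own partner arm came sixth (0.69). With the group means removed, these values were 0.74, 0.88, 0.69 and 0.51. Without FD_CON_2 they were 0.69, 0.70, 0.61 and 0.76, and the partner arm then came first of 156. By RPM with all libraries, miR-1 (0.83), miR-145 (0.77) and miR-143 (0.72) took places 1, 2 and 3. The partner arm was then 5th (0.58).

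miR-126-3p was closest to miR-146a (r = 0.79), a miRNA of inflammatory feedback, then to miR-19b (0.76) of the miR-17-92 cluster and to miR-126-5p (0.69). Without FD_CON_2 the order of these was the same, with group means removed miR-19b (0.60) came ahead of miR-146a (0.58), and by RPM miR-126-5p was 11th (0.58). miR-218 was closest to miR-365-3p (0.80), let-7b (0.79) and hsa-miR-452-5p (0.79). Without FD_CON_2, let-7b stayed second (0.81), whereas miR-365-3p was ninth (0.68) and hsa-miR-452-5p eighth (0.69). miR-126-5p and miR-126-3p took places 60 and 106 of 156 for miR-218, with r = 0.35 and -0.02, and places 111 and 124 without FD_CON_2, with r = -0.08 and -0.19. With group means removed, these r values over all libraries were 0.05 and -0.45. By RPM they were -0.07 and -0.56, so the value against miR-126-3p depended on the group means and the scaling.

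The 3 miRNAs were read beside 5 others of an endothelial list: miR-221 and miR-222, which restrain KIT in human endothelial cells, miR-130a, which represses the homeobox gene GAX there, and miR-424-5p and miR-503-5p, a cluster with effects on endothelial growth. All 8 were tested and 0 passed. Over CON and PHY cows together, 5 of 8 were below 0 on grain, with a median log2 change of -0.12, where 50.9% of all 468 miRNAs were below 0 and their median was -0.01. This count and median include the 3 members and so partly restate their values. Besides the 3 members, the changes were -0.15 ± 0.12 (SE) for miR-222, -0.09 ± 0.14 for miR-130a, 0.09 ± 0.13 for miR-221, 0.20 ± 0.19 for miR-424-5p and 0.47 ± 0.30 for miR-503-5p. Members of the list therefore lay on both sides of 0.

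In PHY cows 4 of 8 were below 0 (median 0.03), against 49.4% of all miRNAs, and in CON cows 6 of 8 (median -0.13), against 53.8%. miR-222 stood at 0.13 ± 0.18 in PHY cows and -0.42 ± 0.16 in CON cows, with an interaction of 0.54 ± 0.24 (unadjusted p = 0.0319, adjusted p = 0.997 by edgeR). The interaction was below 0 in 2 of 8, against 43.6% of all miRNAs, and 1.28% of these were higher at an unadjusted p under 0.05. miR-221 stood at 0.33 ± 0.19 in PHY cows and -0.15 ± 0.17 in CON cows. Between treatments on grain, miR-221 differed by 0.41 ± 0.18 (unadjusted p = 0.0375) and miR-130a by -0.44 ± 0.20 (unadjusted p = 0.0386), both with an adjusted p of 0.677, where 4.7% of all miRNAs were higher and 2.14% lower at an unadjusted p under 0.05. On grain 3 of 8 were below 0 in PHY relative to CON cows, against 49.8% of all miRNAs. On forage, 7 of 8 were below 0, against 55.6% of all miRNAs, with 0 at an unadjusted p under 0.05. Each of these counts out of 8 includes the 3 members and so partly restates their values.

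**Figure D5:**
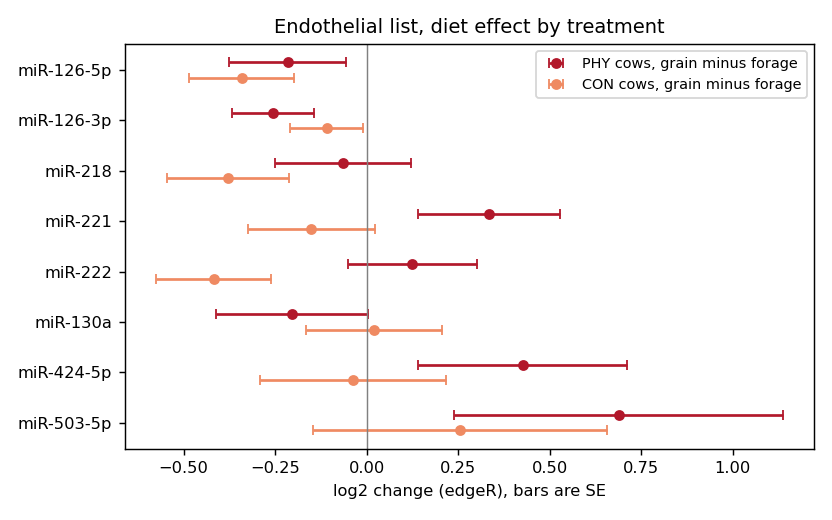
Log2 change, grain minus forage (x axis), of the 8 miRNAs of the endothelial list in PHY cows and in CON cows, with SE bars from the edgeR fit. The miR-126 arms and miR-218 lie below 0 for both treatments, and miR-221 and miR-222 lie above 0 in PHY cows and below 0 in CON cows. Of these, the SE bars of miR-218 and miR-222 in PHY cows and of miR-221 in CON cows reach across 0.

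Of 21 miRNAs linked to blood vessel growth, 12 were below 0 on grain over CON and PHY cows (median -0.02), and 0 passed; over all 468 miRNAs 50.9% were below 0 and the median was -0.01. An unadjusted p under 0.05 was found for 4 of the 21, against 10.7% of all miRNAs. The 4 with an unadjusted p under 0.05 were miR-210, the miRNA induced by hypoxia, at 0.41 ± 0.14 (SE), miR-23b-3p (counted under the overlapping entry miR-10174-3p) at -0.24 ± 0.10, miR-10a at -0.26 ± 0.12 and miR-10b at -0.27 ± 0.13. The adjusted p of miR-210 was 0.221.

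Lists for neighbouring cells in the papilla were read beside the miR-126 arms. The muscle miRNAs, which include those of vessel walls, were below 0 on grain in 4 of 4 tested members (median -0.38), against 50.9% of all miRNAs (median -0.01), and 0 passed. They summed to 102603 to 112167 CPM in HG_PHY, 103190 to 133026 in HG_CON, 129264 to 166117 in FD_PHY and 138597 to 297899 in FD_CON. The leading changes were -0.51 ± 0.12 (SE) for miR-143 and -0.46 ± 0.15 for miR-145, with adjusted p-values of 0.110 and 0.221 by edgeR. Their part in the values of the miR-126 arms was not tested.

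The erythroid miRNAs, a measure of red blood cells in the sample, were below 0 in 0 of 3 (median 0.20), against 50.9% of all miRNAs, with 0 at an unadjusted p under 0.05. They summed to 6415 to 16870 CPM in HG_PHY, 7895 to 18352 in HG_CON, 7299 to 12361 in FD_PHY and 6404 to 14199 in FD_CON. These ranges overlapped throughout, and the erythroid list and the miR-126 arms lay on opposite sides of 0.

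The leukocyte miRNAs were below 0 in 5 of 7 (median -0.20), against the same 50.9% of all miRNAs, among them miR-146a at -0.53 ± 0.13 (SE) and miR-342 at -0.28 ± 0.10, with the myeloid miR-223 at 0.48 ± 0.20. They summed to 4836 to 5372 CPM in HG_PHY, 4873 to 7850 in HG_CON, 5432 to 7972 in FD_PHY and 5501 to 6909 in FD_CON. The epithelial miRNAs were below 0 in 2 of 6 (median 0.04), again against 50.9%, with miR-141 at 0.39 ± 0.16. In the leukocyte and epithelial lists 0 members passed, and their part in the values of the 3 miRNAs was not tested.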

How the data were processed

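Total RNA (NucleoSpin miRNA kit) went into NETflex small RNA libraries, per the labels' protocols. bcl2fastq 2.20 and DESeq2 are named in the submitters' processing notes. Aligner, counter and build were not given in the sources used here, so only chromosomes are printed. Per the file headers, each deposited file gives a raw read count for every miRNA name, with a read that matches several names counted under each. Beside it stand the authors' expected count, with such reads split over names and places, and RPM. Names missing from a file were taken as 0.

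Names that overlap by at least 15 nt, or bovine and human names of a miRNA with totals within 5%, were merged (966 names, 824 miRNAs) under the name that had most reads. edgeR 4.0.16 (R 4.3.3) fitted the raw counts of 468 miRNAs that passed filterByExpr, with TMM scaling and 1 mean per group (18 libraries, 4 groups), as a quasi-likelihood test with Benjamini-Hochberg adjustment over the 468 and a two-sided threshold of 0.05. The script was tested on simulated data. Expected counts were rounded for the fit that used them. The ratio of the miR-126 arms was tested by exact permutation.

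The same 9 cows gave forage and grain samples, but the labels do not say that replicate numbers mark a cow, so the model has no cow term and its p-values treat the libraries as independent. Alternatives were DESeq2 1.42.0, limma-voom with quality weights (limma 3.58.1), DESeq2 size factors in edgeR, no filter on low counts, the authors' expected counts, a replicate block, no scaling factor and each library left out.

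The 3 miRNAs and the lists were chosen with earlier results of these data known. Named besides the 3 were all members of the endothelial list, up to 4 members of each other list with the lowest unadjusted p under 0.05, and the 3 miRNAs most correlated with each member. miR-133b was in the muscle list but did not pass the filter.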

Additional observations from a re-analysis of the deposited data

Results flagged for a closer look

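The miR-126-5p level of FD_CON_2, at 3664 CPM, lay far from the other 4 libraries of its group, which ran from 2203 to 2403 CPM. The gap was 0.863 of the range of the group, above the critical value of 0.710 for 5 samples. Chance flags about 1 in 20 groups, and 16 groups were checked (3 miRNAs and the arm ratio in 4 groups). The same library had the highest miR-218 (392 CPM), the lowest ratio of miR-126-3p to miR-126-5p (3.41) and the highest sum of muscle miRNAs (297899 CPM). It also had the most reads counted once per miRNA (15.2 M) and the highest share of reads assigned to miRNAs (48.6%). The next highest share was 43.9% in FD_PHY_4. Whether these bear on its levels was not tested.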

How the results depend on the processing

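None of the 3 miRNAs and none of the arm ratios passed in any comparison under any alternative run. Over both treatments the changes kept their sign throughout: leaving out 1 library gave -0.32 to -0.22 for miR-126-5p, -0.23 to -0.12 for miR-126-3p and -0.27 to -0.16 for miR-218. Signs turned where changes were small. With 1 library left out, miR-218 ranged from -0.15 to 0.045 for grain in PHY cows and from -0.011 to 0.15 for PHY on grain, and the arm ratio from -0.012 to 0.13 for grain in PHY cows. With no scaling factor, miR-126-3p was 0.083 for grain in CON cows and 0.089 for PHY on forage, and the interaction of miR-126-5p was -0.064; the median of all miRNAs moved by 0.19, 0.15 and -0.18 in these comparisons. Scaled by assigned reads, the forage correlation of the miR-126 arms was -0.41, that of miR-126-5p and miR-218 0.61 and that of miR-126-3p and miR-218 -0.87; the cause was not tested.

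The count of miRNAs called over both treatments was 1, and 5 with DESeq2 (3 higher, 2 lower), 3 with no filter (1 higher, 2 lower), 0 with expected counts, 3 with limma-voom (1 higher, 2 lower), 2 with no scaling factor and 0 to 3 with 1 library left out. In PHY cows limma-voom called 1. For PHY on grain DESeq2 called 2 and the fits without 1 library 0 to 2; on forage DESeq2 and the fit with no filter each called 1 and the fits without 1 library 0 to 1.

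With the replicate number as a block, 4 miRNAs were called over both treatments (1 higher, 3 lower), and the changes were -0.28 for miR-126-5p (adjusted p = 0.167), -0.19 for miR-126-3p (0.178) and -0.22 for miR-218 (0.206) by edgeR. Deviations of same-numbered libraries correlated at 7.1e-05 to 0.41, and at over 0.1 in 5 of 9 pairs. Among the 4 or 5 forage libraries of their treatment, 4 of 9 grain libraries matched their own number best. These values do not settle whether the numbers mark cows. The number of cows, 4 or 5 in a group, limits the precision.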

Other observations

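Arm ratios could be set beside those of 8 other hairpins with entries for both arms at a mean of at least 100 CPM. The within-group SD of the log2 arm ratio was 0.20 for miR-126, the smallest of the 9, and the median was 0.27. The size of its change with grain, 0.09, was exceeded in 6 of the other hairpins (median of the 9, 0.12). The correlation of the arms over the 18 libraries was 0.69 for miR-126, and 2 hairpins had a higher one (miR-142 with 0.77 and miR-9 with 0.71). This set of hairpins was chosen after the layout of the entries was seen.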
